A study of Mus musculus with 4 samples.

Results

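The genes described here are 39 immediate early, heat shock and related stress genes. Like the other gene lists below, they were chosen by name with earlier results of these data known. They comprise 23 immediate early genes, 12 heat shock genes and 4 genes of endoplasmic reticulum (ER) and oxidative stress. They were measured by 50 of the 39429 probes of a whole-genome mouse array, and 38 of the 39 genes were among the 24150 genes and transcripts tested. Cells came from Six2GFP kidneys of mouse embryos, a hybrid of 129 and C57BL/6, at stage E15.5, and were parted by fluorescence-activated sorting. Six2GFP-positive cells (2 arrays) were compared with Six2GFP-negative cells (2 arrays), and each population had one array titled S1 and one titled S2. Six2, the transcription factor whose reporter was sorted on, keeps nephron progenitors in a self-renewing state, and the negative cells are all other cells of the organ, whatever their type. The labels do not say what separates S1 from S2, whether a number marks shared kidneys, or how many embryos were pooled, so p-values measure only the spread between these arrays. The reporter allele is present in the embryos of both populations, and neither came from a kidney without it. One label field speaks of tamoxifen and another calls the negative cells nephron progenitors, while the protocols mention neither.

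Immediate early genes are switched on within minutes by growth factors, cytokines or stress, without new protein synthesis, through factors such as SRF and CREB that are already present in the cell. Their products include the AP-1 subunits of the Fos and Jun families, EGR transcription factors, phosphatases that shut off MAP kinases, and proteins that bring about the decay of short-lived mRNAs. Heat shock genes encode chaperones that fold or refold proteins, and heat shock factors raise their transcription when unfolded protein accumulates. Both classes are known to respond in many tissues while cells are dissociated, and in the developing kidney growth factor signals also act through immediate early genes.

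The control regions of 6 members are shown because these genes carry differences reported further on. RefSeq promoter windows (GRCm38.p6, 250 bases before to 50 after the start) were at hand for 31 of the 39 members. Each line gives the 150 bases before the start, 5′ to 3′ on the gene's strand. Capitals mark the heat shock element pair GAANNTTC or TTCNNGAA in Hspe1 (chr1:55087998-55088147, plus strand) and Hspb1 (chr5:135887769-135887918, plus strand). They mark the full cAMP response element TGACGTCA in Dusp1 (chr17:26508473-26508622, minus strand) and the CArG box, the word bound by SRF, in Zfp36 (chr7:28379229-28379378, minus strand). In Fos (chr12:85473740-85473889, plus strand) and Fosb (chr7:19310046-19310195, minus strand) they mark the short form of that element, TGACG or CGTCA.
Hspe1: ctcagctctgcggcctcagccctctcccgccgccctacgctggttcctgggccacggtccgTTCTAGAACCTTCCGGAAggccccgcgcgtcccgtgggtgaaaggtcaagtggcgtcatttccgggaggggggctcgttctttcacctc
Hspb1: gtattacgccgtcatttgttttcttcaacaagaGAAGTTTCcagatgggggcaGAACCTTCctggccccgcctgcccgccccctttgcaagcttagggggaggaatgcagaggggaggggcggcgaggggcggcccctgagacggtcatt
Dusp1: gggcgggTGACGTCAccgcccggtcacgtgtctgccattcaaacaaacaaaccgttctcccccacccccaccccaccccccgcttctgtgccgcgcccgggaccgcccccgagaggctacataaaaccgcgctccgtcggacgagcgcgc
Zfp36: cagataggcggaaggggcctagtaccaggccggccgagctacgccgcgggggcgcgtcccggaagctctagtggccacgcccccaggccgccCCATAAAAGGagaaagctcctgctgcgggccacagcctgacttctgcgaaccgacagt
Fos: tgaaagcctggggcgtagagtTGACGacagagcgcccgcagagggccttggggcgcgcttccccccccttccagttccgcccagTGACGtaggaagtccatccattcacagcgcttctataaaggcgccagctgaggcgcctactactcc
Fosb: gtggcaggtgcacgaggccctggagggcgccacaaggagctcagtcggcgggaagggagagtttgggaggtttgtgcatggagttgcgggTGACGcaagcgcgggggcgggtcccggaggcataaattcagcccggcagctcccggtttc

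Over the whole windows and both strands, the heat shock element pair was found in 8 of 10 heat shock genes with a window (Hspa1a, Hspb1, Hspb8, Hsph1, Hspe1, Hspd1, Dnaja1 and Bag3), in 3 of 18 immediate early genes, and in 17.0% of all 27025 genes with a window. A run of 3 alternating units, which contains the pair, was found in Hsph1, Hspe1 and Hspd1 and in 0.662% of all genes. In Hspe1 the overlapping pairs begin 89, 84 and 79 bases before the start. Hspe1 and Hspd1 are neighbours that face away from each other, and one of the Hspd1 windows covers all 150 bases shown for Hspe1 on the opposite strand. The full cAMP response element was found in 3 of 18 immediate early genes (Dusp1, Btg2 and Maff) and in 2.03% of all genes, and the CArG box in 2 (Egr2 and Zfp36) and in 1.81% of all genes. The short form, which the full element contains, was found in 10 of 18 immediate early and 5 of 10 heat shock genes, against 23.0% of all genes. These matches describe letters and say nothing of what binds there.

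Signal is given throughout as log2 of the scanner's processed intensity minus the array's 75th percentile of such values, so that 0 is the level of a fairly bright probe and a difference of 1 is 2-fold. Levels of different probes are not comparable. The sort was as labelled: Six2 stood at 5.58 and 5.74 in Six2GFP-positive cells, against -0.17 and -0.15 in Six2GFP-negative cells, a difference of 5.82 ± 0.10 (limma standard error, n = 2 each, adjusted p = 5.0e-04). Probes well above background made up 75.2% and 72.5% of spots on the positive S1 and S2 arrays and 79.1% and 76.8% on the negative S1 and S2 arrays. All arrays were hybridised on 1 slide and scanned at 1 recorded time. Across all genes tested, 9402 (38.9%) differed between the populations at an adjusted p of 0.05, and the median difference was 0.15.

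The first comparison set S1 against S2 within each population. Immediate early genes stood higher on S1 than on S2 in both sorted populations, and most heat shock genes stood slightly lower. Fos, Fosb, Atf3, Dusp1 and Socs3 were at least 2-fold higher on S1 in positive and in negative cells alike. With 1 array on each side inside a population these differences have no replicate check. With both populations in 1 fit (limma, additive term for the number), no gene of 24150 (0.0%) passed an adjusted p of 0.05, the lowest adjusted p being 0.607. At an unadjusted p of 0.05, 1337 genes (5.54%) were higher on S1 and 642 (2.66%) lower. Errors of this fit measure how far the gaps in the 2 populations differ, moderated over all genes. An error near 0.08 comes mostly from the values of all genes. If a number marks shared kidneys, the positive and negative arrays of that number are not separate samples, and the errors hold no spread between kidneys.

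Of the 22 immediate early genes tested, 19 (86.4%) were higher on S1 in both populations and none was lower in both, against 7738 genes (32.0%) higher and 6671 (27.6%) lower over the whole table. The remaining 3, Fosl2, Arc and Btg1, had opposite signs in the populations. The second probes of Fosl2 (0.28 in positive and 0.17 in negative cells) and Btg1 (0.19 in positive and 0.88 in negative cells) read higher on S1 in both. The median difference was 0.76 in positive and 0.59 in negative cells, beside 0.01 and 0.01 over all genes. At an unadjusted p of 0.05, 12 of the 22 were higher and none lower. The 5 genes at least 2-fold higher in both populations stand beside 84 such genes (0.348%) in all.

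Fos, an AP-1 subunit measured at chr12:86817900-86817959 (mm9, as are all probe positions), had 2.95 on S1 and 1.23 on S2 in positive cells, and 2.74 on S1 and 1.01 on S2 in negative cells. Both S1 arrays lay above both S2 arrays, and the fold, 3.29 in positive and 3.30 in negative cells, was nearly the same in the populations (mean difference 1.72 ± 0.08, limma unadjusted p = 0.00025, adjusted p = 0.607). Fosb, a close relative of Fos measured at chr7:19888168-19888227, had 0.15 on S1 and -1.68 on S2 in positive cells, and 0.23 on S1 and -2.15 on S2 in negative cells. It had the largest mean difference of the members, 2.11 ± 0.18, a 3.56-fold excess on S1 in positive and a 5.22-fold excess in negative cells. Ranked by the smaller of their 2 differences, Fosb was number 9 and Fos number 11 of 24150 genes. The short promoter stretches shown for both hold the short form but neither the full element nor the CArG box. Sequence more than 250 bases before the start was not searched, so sites further away are not covered.

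Among the other AP-1 genes, Jun had 3.84 on S1 and 2.74 on S2 in positive cells, and 4.15 on S1 and 3.38 on S2 in negative cells. Junb was 0.87 ± 0.09 higher on S1, Fosl1 0.66 ± 0.29 and Jund 0.24 ± 0.12 (means over both populations), whereas Fosl2 was at 0.01 ± 0.12. In all, 3 of the 4 Fos family genes and 3 of the 3 Jun family genes were higher on S1 in both populations. Atf3, a stress-induced repressor of the same bZIP class, had -4.23 on S1 and -5.55 on S2 in positive cells, and -1.61 on S1 and -2.89 on S2 in negative cells. Its excess on S1 was 2.50-fold in positive and 2.44-fold in negative cells, on top of a large difference between the populations. Among the zinc finger factors, Egr1 was 0.66 ± 0.08 higher on S1, with 1.56-fold in positive and 1.61-fold in negative cells, and Egr2 0.41 ± 0.19. Egr3 did not enter the test, since it was well above background on the S1 arrays only, at -6.36 in positive and -7.12 in negative cells. On the S2 arrays Egr3 read -6.82 in positive and -7.89 in negative cells, and S1 exceeded S2 at least 1.20-fold, where each S2 array was given the level of its dimmest probe well above background if Egr3 read below that.

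The other immediate early genes included phosphatases, inhibitors and RNA-binding proteins. Dusp1, a MAP kinase phosphatase, had -0.35 on S1 and -1.42 on S2 in positive cells, and 0.41 on S1 and -0.73 on S2 in negative cells. Socs3, an inhibitor of cytokine receptors, had 2.96 on S1 and 1.87 on S2 in positive cells, and 1.76 on S1 and 0.69 on S2 in negative cells. Both S1 arrays exceeded their own population's S2 array in each case, by 1.11 ± 0.08 for Dusp1 and 1.09 ± 0.08 for Socs3. Dusp2, a second phosphatase of the family, was at 0.07 ± 0.08. Zfp36, which brings mRNAs with AU-rich elements to decay, was 1.0 ± 0.08 higher on S1, and its relative Zfp36l1 0.19 ± 0.10. The antiproliferative gene Btg2 was 1.07 ± 0.13 higher and Btg1 0.09 ± 0.10. Ier3 was 1.14 ± 0.20 higher, Ier2 0.49 ± 0.08, Maff, a small Maf factor, 0.45 ± 0.16, Ier5 0.31 ± 0.13 and Arc, known from synapses, 0.22 ± 0.16. A second Ier5 probe read -0.02.

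**Figure D1:**
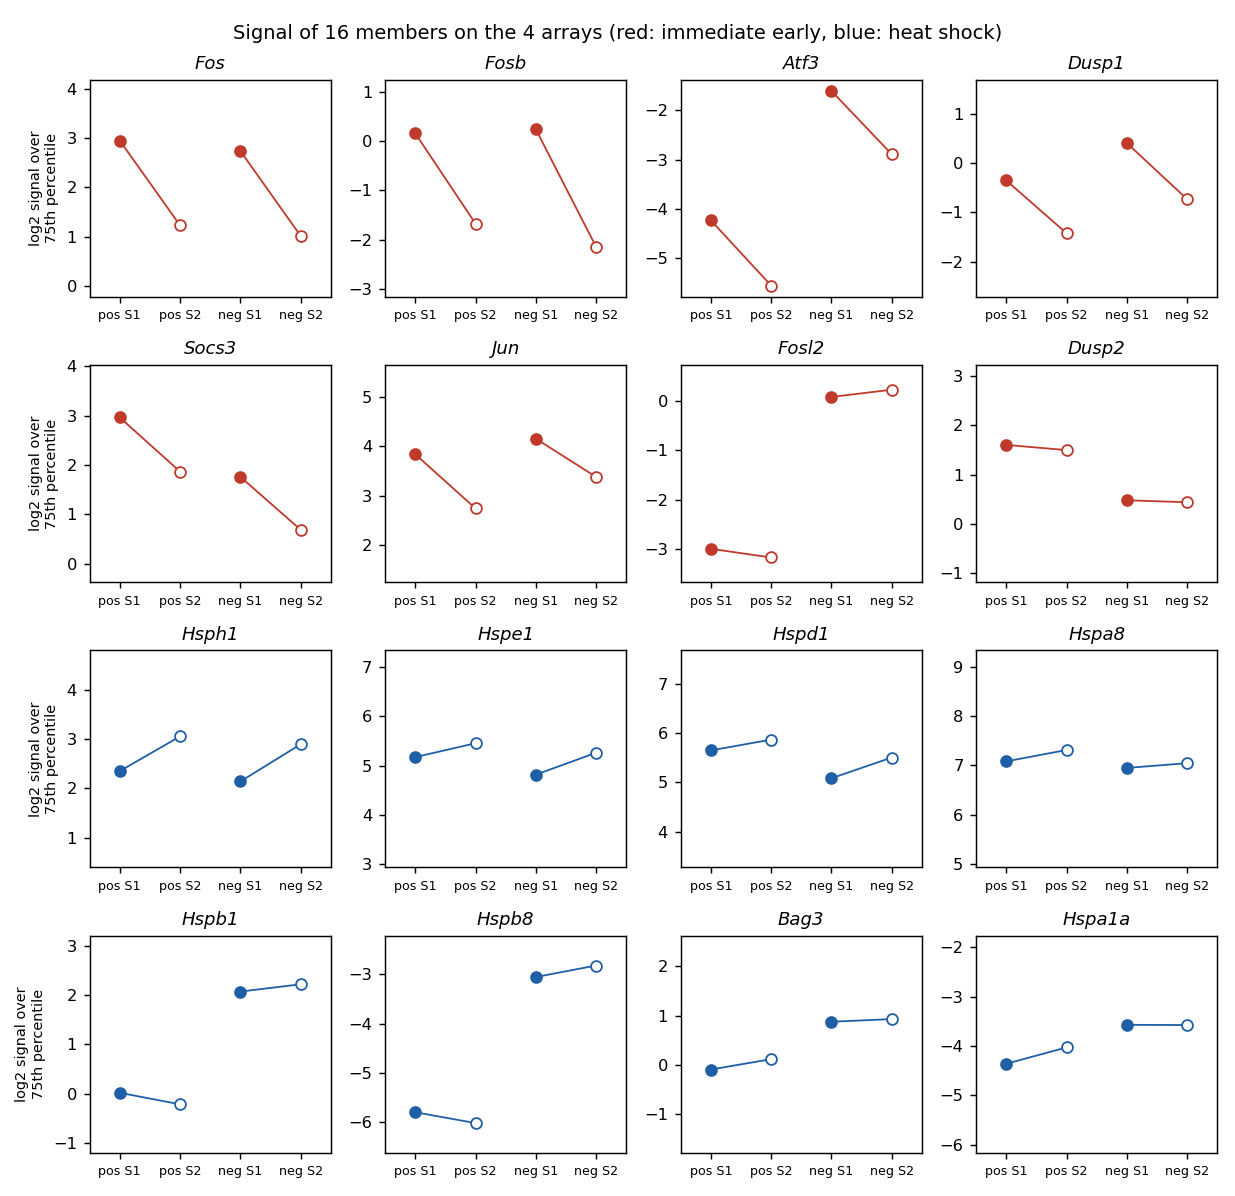
Signal of 16 members on the 4 arrays (y axis, log2 signal over the array's 75th percentile, the same span in each panel). The x axis gives Six2GFP-positive S1 and S2, then Six2GFP-negative S1 and S2; filled points are S1, open points S2, and lines join the arrays of a population. Fos, Fosb, Atf3, Dusp1, Socs3 and Jun are higher on S1 in both populations, Hsph1, Hspe1 and Hspd1 are lower on S1, and Fosl2, Dusp2, Hspb1, Hspb8 and Bag3 part by population.

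Heat shock genes differed the other way and by less. Of 12, 9 (75%) were lower on S1 in both populations and none was higher in both, beside the 27.6% and 32.0% of all genes. The median difference was -0.23 in positive and -0.19 in negative cells, on the opposite side of 0 from the immediate early medians. At an unadjusted p of 0.05, 3 of the 12 were lower on S1 and none higher. Hsph1, a large Hsp70-like chaperone that exchanges the nucleotide of its partners, was the furthest from 0. It had 2.35 on S1 and 3.05 on S2 in positive cells, and 2.14 on S1 and 2.89 on S2 in negative cells (-0.73 ± 0.08, limma unadjusted p = 0.0032, adjusted p = 0.607). Its second probe gave -0.80. Both S2 arrays lay above both S1 arrays.

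Hspe1 and Hspd1, which together form the folding chamber of mitochondria, came next, and the stretch shown for Hspe1 lies in a window of each. Hspe1 had 5.17 on S1 and 5.45 on S2 in positive cells, and 4.82 on S1 and 5.26 on S2 in negative cells. Hspd1 had 5.65 on S1 and 5.87 on S2 in positive cells, and 5.08 on S1 and 5.50 on S2 in negative cells. S1 and S2 were 1.21-fold apart for Hspe1 in positive and 1.36-fold in negative cells, and 1.16-fold apart for Hspd1 in positive and 1.34-fold in negative cells; whether the populations differ in this was not tested. Among the 31 members with a window, Hsph1, Hspe1 and Hspd1 are also those that hold the triple heat shock element. Hspe1 and Hspd1 share the stretch that holds it. This was observed after their values were seen, and a link was not tested. The Hsp40 co-chaperones Dnajb1 and Dnaja1 were at -0.27 ± 0.08 and -0.26 ± 0.08, constitutive Hspa8 at -0.16 ± 0.09, the regulators Hsf2 and Hsf1 at -0.15 ± 0.09 and -0.14 ± 0.08, and the co-chaperone Bag3 at -0.13 ± 0.09. Hspb8, Hspb1 and Hspa1a had opposite signs in the 2 populations. Hspa1a, the heat-inducible Hsp70 gene, read -4.36 on S1 and -4.03 on S2 in positive cells, and -3.57 on both arrays of negative cells.

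**Figure D2:**
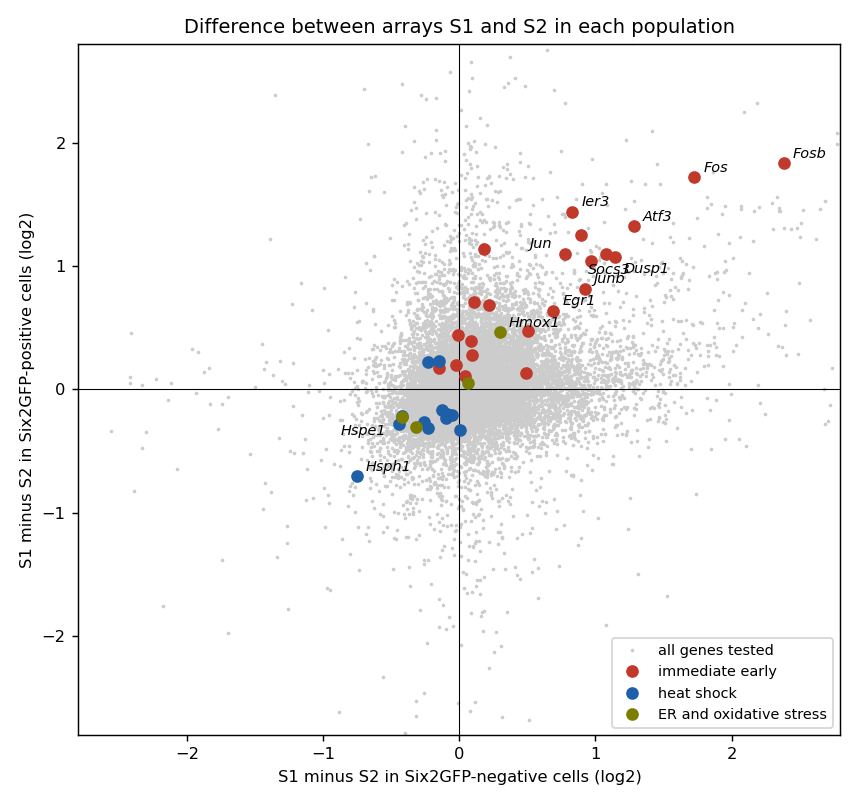
S1 minus S2 in Six2GFP-positive cells (y axis, log2) against the same in Six2GFP-negative cells (x axis, log2) for the 38 members, coloured by class, over all genes tested in grey; 68 genes lie outside the plotted range. Of 22 immediate early genes 19 lie in the upper right, with Fos and Fosb furthest out, and heat shock genes lie close to 0, mostly in the lower left, with Hsph1 furthest out.

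The 4 ER and oxidative stress genes divided. Hspa5, the chaperone of the ER lumen, was -0.31 ± 0.08 and Ddit3, a transcription factor of the ER stress response, -0.32 ± 0.10, both lower on S1 in both populations. Hmox1, which breaks down haem, was 0.38 ± 0.10 higher on S1, and Atf4, the translationally controlled factor upstream of Ddit3, 0.05 ± 0.08.

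Other genes of the same pathways, none of them members, gave these counts. They stand beside 32.0% of all genes higher on S1 in both populations and 27.6% lower. Of 37 further early response genes tested, 24 were higher on S1 in both populations and 3 lower, with medians of 0.28 in positive and 0.21 in negative cells. Only 2 of them, Nr4a1 and Rgs1, were at least 2-fold higher in both, and they are named after their values were seen. Nr4a1, an orphan nuclear receptor, was 1.67 higher on S1 in positive and 1.48 in negative cells, and Rgs1, a regulator of G protein signalling, 2.08 and 2.78. Of 36 further chaperones and their partners, 17 were lower on S1 in both populations and 3 higher. Of 26 further ER and oxidative stress genes, 15 were lower and 1 higher. Of 17 kinases and transcription factors upstream of the immediate early genes, 6 were lower and 3 higher, with medians of -0.03 and -0.01.

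Markers of other cells were also compared between the numbers. All 14 leukocyte markers were higher on S1 in both populations, beside 32.0% of all genes. Their medians were 0.54 in positive and 0.23 in negative cells, and all were well above background on each array. Their summed relative signal, which follows the brightest probes, Itgam and Csf1r, was 18.9 on S1 and 15.9 on S2 in positive cells. In negative cells it was 24.9 on S1 and 18.6 on S2. Proximal tubule markers had a median of 0.62 in positive and 0.03 in negative cells, and ureteric bud markers 0.40 in positive and -0.20 in negative cells. Of 8 proximal tubule markers, 4 were higher on S1 in both populations and 1 lower. Of 9 ureteric bud markers, 1 was higher in both and 1 lower. The part of these cells, and of the higher share of spots above background on S1, in the immediate early difference was not tested.

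**Figure D3:**
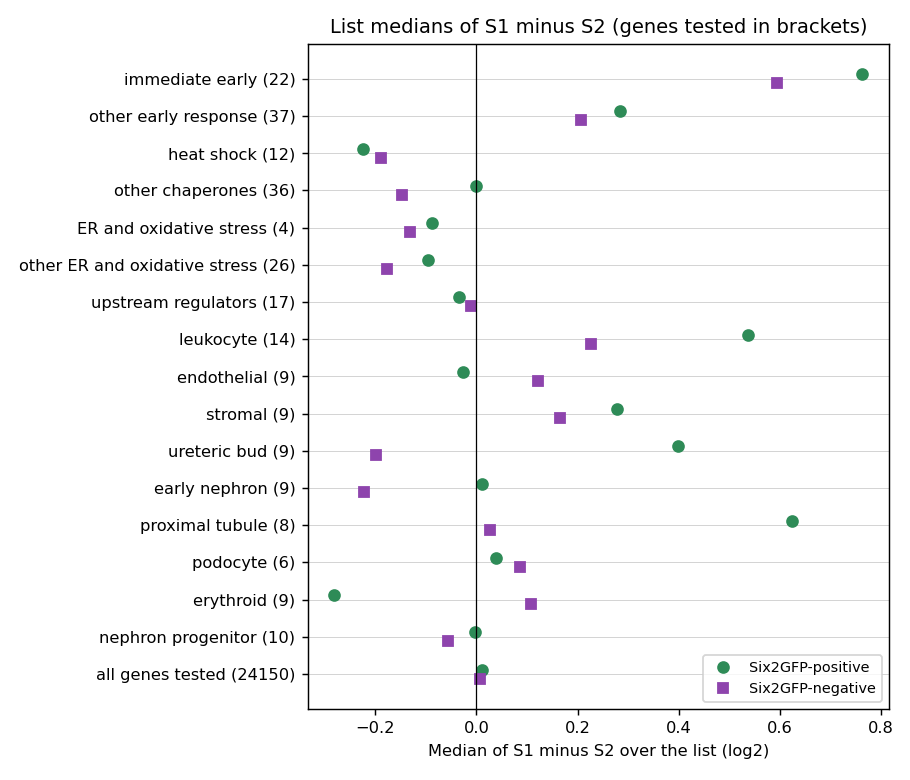
Median of S1 minus S2 (x axis, log2) for each gene list, with Six2GFP-positive cells as circles and Six2GFP-negative cells as squares; the number of genes tested stands in brackets. Immediate early genes have the highest median in negative cells, 0.59, and in positive cells, 0.76, followed there by proximal tubule (0.62) and leukocyte (0.54) markers, while heat shock genes lie at -0.23 and -0.19.

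The second comparison set Six2GFP-positive against Six2GFP-negative cells. Of 22 immediate early genes, 3 rose in positive cells (Dusp2, Egr2 and Btg1) and 2 fell (Fosl2 and Atf3), beside 20.7% of all genes higher and 18.3% lower. Of the 12 heat shock genes, 4 fell (the small heat shock proteins Hspb8 and Hspb1, Bag3 and Hspa1a) and none rose. Of the 4 ER and oxidative stress genes, Atf4 alone rose. The median difference was 0.25 for immediate early and 0.16 for heat shock genes, beside 0.15 for all genes. The signs of these medians were not stable. The immediate early median ran from -0.10 to 0.67 when 1 array was left out. The heat shock median was -0.10 under quantile normalization, -0.087 with normexp before it, -0.014 without negative S1 and -0.034 without positive S2. Leaving out 1 array makes S1 and S2 unequal between the populations. The gap between S1 and S2 then enters the difference, here and in each omission below. Values of the populations did not overlap for 13 of 22 immediate early and 8 of 12 heat shock genes, against 74.9% of all genes. When arrays were scaled by their median instead, 10810 genes rose and 3767 fell; of the immediate early genes 8 rose and 2 fell, and of the heat shock genes 3 rose and 3 fell.

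Among the transcription factors, Fosl2, an AP-1 subunit, had -3.00 on S1 and -3.17 on S2 in positive cells, against 0.08 and 0.23 in negative cells. The populations were far apart, 9.45-fold lower in positive cells (-3.24 ± 0.11, limma, n = 2 each, adjusted p = 5.9e-04). This value comes from the brighter probe at chr5:32460076-32460135. The other probe, at chr5:32455088-32455147, read -6.27 and -6.56 in positive cells and -5.99 and -6.16 in negative cells, a difference of -0.34 ± 0.14 (adjusted p over all probes = 0.135). Fosl2 was the only member with several probes, of 8, whose probes differed by more than 2-fold between the populations, and no member had probes called in opposite directions. Atf3, with the values given above, was 6.24-fold lower in positive cells (-2.64 ± 0.66, adjusted p = 0.0448). Its call was lost when 1 array was left out, with an adjusted p of 0.129 without negative S1, 0.124 without positive S2 and 0.0691 without negative S2.

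Egr2, a zinc finger factor, had -0.68 on S1 and -1.39 on S2 in positive cells, against -2.03 and -2.14 in negative cells, a 2.06-fold rise (1.05 ± 0.27, adjusted p = 0.0475). The call was lost without positive S1 (adjusted p = 0.0584), without negative S1 (0.129) and without negative S2 (0.156). Fos and Fosb showed no difference beyond the spread, with 0.21 ± 0.87 for Fos and 0.20 ± 1.07 for Fosb, and the errors hold the gap between S1 and S2. Of the rest of these factors, Egr1 was at 0.65 ± 0.34, Fosl1 at 0.67 ± 0.42, Junb at 0.41 ± 0.44, Jund at 0.34 ± 0.16, Jun at -0.48 ± 0.49 and Maff at -0.70 ± 0.27, none past the threshold.

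Of the other immediate early genes, Dusp2 had 1.60 and 1.5 in positive cells, against 0.48 and 0.44 in negative cells. It rose 2.13-fold (1.09 ± 0.09, adjusted p = 0.0031). Btg1 had 4.0 and 3.80 in positive cells, against 2.99 and 3.02 in negative cells, a 1.86-fold rise (0.89 ± 0.11, adjusted p = 0.0082), and its second probe gave 1.29 ± 0.33. Socs3 had a larger difference than either, 1.19 ± 0.55, without passing the test (adjusted p = 0.164). Ier2 was at 0.79 ± 0.26, Btg2 at 0.54 ± 0.55, Zfp36l1 at 0.29 ± 0.13, Ier5 at 0.10 ± 0.20, Arc at -0.47 ± 0.18, Zfp36 at -0.70 ± 0.51, Dusp1 at -0.72 ± 0.56 and Ier3 at -1.22 ± 0.60. The 17 immediate early genes that did not pass had adjusted p-values of 0.0795 to 0.897. Fosl2, Dusp2 and Btg1 had the lowest adjusted p-values of the class and also its smallest mean differences between S1 and S2, which enter the error.

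Among heat shock members, Hspb8 and Hspb1, small heat shock proteins that hold unfolded proteins without ATP, differed most. Hspb8, at chr5:116859063-116859122, had -5.80 on S1 and -6.02 on S2 in positive cells, against -3.06 and -2.82 in negative cells (7.83-fold lower, -2.97 ± 0.14, adjusted p = 9.0e-04). Hspb1, at chr5:136365366-136365425, whose promoter is shown above, had 0.02 and -0.22 in positive cells, against 2.07 and 2.22 in negative cells. It was 4.73-fold lower (-2.24 ± 0.13, adjusted p = 0.0013). Bag3, the co-chaperone that binds Hspb8, had -0.09 and 0.11 in positive cells, against 0.87 and 0.93 in negative cells (-0.89 ± 0.11, adjusted p = 0.0090). Without negative S2 the adjusted p of Bag3 was 0.0532. Values of the populations did not overlap for any of these genes, as for 74.9% of all genes.

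Hspa1a differed less, by -0.62 ± 0.14 (adjusted p = 0.0373), and lost the call under other scalings and without 3 of the 4 arrays, where its adjusted p lay between 0.107 and 0.120. Its near-identical copy Hspa1b has no probe of its own name on the array, so signal at chr17:35107117-35107176 may come from either gene. The other 8 heat shock genes were between 0.09 and 0.46 and did not pass: Hspd1 at 0.46 ± 0.19, Hsf1 at 0.41 ± 0.11 (adjusted p = 0.0510), Hsf2 at 0.36 ± 0.11, Hspe1 at 0.27 ± 0.20, Hspa8 at 0.20 ± 0.12, Hsph1 at 0.18 ± 0.38, Dnajb1 at 0.13 ± 0.16 and Dnaja1 at 0.09 ± 0.15. The signs of Hspa8, Dnajb1 and Dnaja1 turned under quantile normalization.

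**Figure D4:**
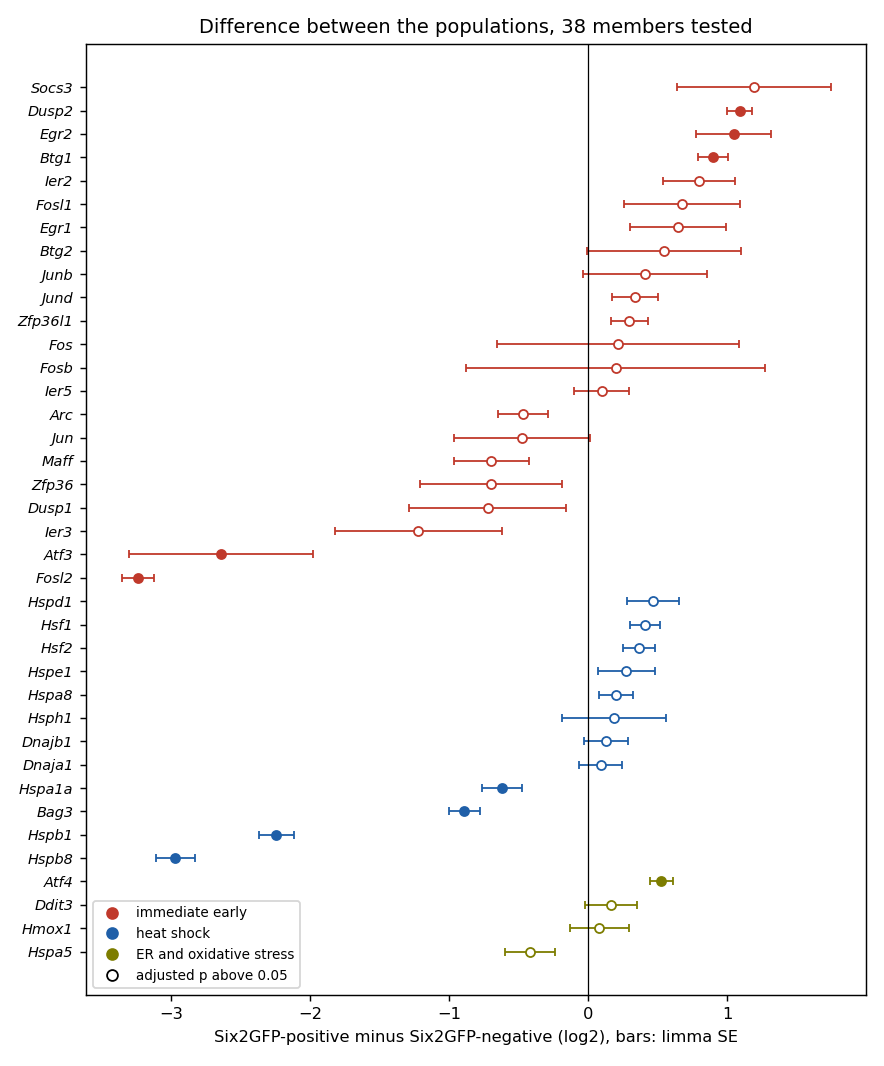
Six2GFP-positive minus Six2GFP-negative cells (x axis, log2) for the 38 members tested, by class, with limma standard errors as bars (n = 2 arrays each). Filled points passed an adjusted p of 0.05; Fosl2, Atf3, Hspb8 and Hspb1 lie furthest below 0, and bars are widest for Fosb and Fos.

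Atf4 had 0.48 and 0.43 in positive cells, against -0.04 and -0.10 in negative cells, a 1.44-fold rise (0.53 ± 0.09, adjusted p = 0.0169) that was lost without any 1 array, at adjusted p-values of 0.0573 to 0.0942. A second Atf4 probe was left out for outlier spots. Hspa5 was at -0.42 ± 0.18, Ddit3 at 0.16 ± 0.19 and Hmox1 at 0.08 ± 0.21.

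Of the 37 further early response genes, 4 rose in positive cells and 14 fell, beside 20.7% of all genes higher and 18.3% lower. Together these were 48.6% of the list, against 38.9% of all genes. Ptgs2, the inducible cyclooxygenase, was not well above background on either positive array and was at least 7.01-fold lower there (adjusted p = 5.0e-04). Il6, a cytokine, was also not well above background on either positive array and was at least 3.47-fold lower (limma adjusted p = 0.0403). It had -3.81 on S1 and -6.50 on S2 in negative cells, and the call was lost without either positive array. The adjusted p-values of Ptgs2 and Il6 come from the dim readings in positive cells, not from these bounds. Myc rose by 1.83 ± 0.13 and the phosphatase gene Dusp5 by 1.44 ± 0.13. Of the 36 further chaperones, 8 rose and 4 fell, 33.3% of the list against 38.9% of all genes. The falls were led by Cryab at -2.16 ± 0.12 and Hspb2 at -1.83 ± 0.14, both small heat shock proteins. Of the list's other genes named Hspb, given after their values were seen, Hspb11 rose by 0.48 ± 0.09 (adjusted p = 0.0264). Hspb7 at -0.69 ± 0.19 (adjusted p = 0.0555) and Hspb6 at -0.23 ± 0.09 (adjusted p = 0.127) did not pass. The rises were led by Hspa2 at 0.94 ± 0.09 and the chaperonin subunit Cct3 at 0.54 ± 0.09. Cct3 lost its call without any 1 array (adjusted p = 0.0614 to 0.0914).

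Of the 26 further ER and oxidative stress genes, 2 rose and 11 fell, 50% of the list against 38.9% of all genes. The cystine carrier gene Slc7a11 had no signal well above background on either positive array, and its fall was at least 1.30-fold (limma adjusted p = 0.0018). That adjusted p comes from the dim readings in positive cells, not from this bound. Srxn1, which repairs oxidised peroxiredoxin, fell by 2.01 ± 0.18. Sesn2 rose by 0.68 ± 0.09, a call lost without either positive array (adjusted p = 0.0603 and 0.0675). Nqo1 rose by 0.47 ± 0.11, a call lost without any 1 array (adjusted p = 0.0814 to 0.153). Of 17 upstream regulators, 3 rose and 1 fell, 23.5% of the list against 38.9% of all genes. The kinase gene Map2k3 rose by 0.95 ± 0.08 and Rps6ka3, another kinase gene, by 0.66 ± 0.10, while Elk3, a partner of SRF, was at -0.73 ± 0.10. Rps6ka3 lost its call without any 1 array but negative S1 (adjusted p = 0.0592 to 0.0825), and Elk3 without the S1 array of either population (0.0529 and 0.0584).

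The populations differ in the cells they hold, and these values stand beside each difference above. In positive cells 9 of 10 nephron progenitor markers rose, and all 9 early nephron, all 9 ureteric bud, 8 of 9 stromal, 8 of 9 endothelial, 8 of 9 erythroid, 5 of 6 podocyte, 6 of 8 proximal tubule and 6 of 14 leukocyte markers fell. The summed relative signal of stromal markers was 5.85 to 7.90 in positive cells and 88.3 to 97.3 in negative cells. That of endothelial markers was 9.83 to 10.1 in positive and 34.6 to 34.9 in negative cells. For ureteric bud markers it was 2.35 to 3.1 in positive and 29.4 to 37.3 in negative cells. For leukocyte markers it was 15.9 to 18.9 in positive and 18.6 to 24.9 in negative cells. These sums follow the brightest probes and do not measure shares of cells. Kdr and Itgam, the brightest endothelial and leukocyte markers in positive cells, did not pass the threshold (0.07 ± 0.10 and 0.37 ± 0.21). The median differences of the lists were -5.19 for endothelial and -0.76 for leukocyte markers. Only 8 of 9 stromal markers (both arrays), 8 of 9 endothelial (S2) and 6 of 9 erythroid markers (both arrays) were well above background in positive cells. The part of these cell types in the falls of Fosl2, Atf3, Hspb1 and Hspb8 was not tested, and in such bulk samples fewer cells of a type and less RNA per cell cannot be told apart.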

How the data were processed

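Each sample's total RNA, with Cy3 as the dye, went onto 1 Agilent array of design 026655 (source: labels and file headers). The authors used Agilent Feature Extraction 10.7.3.1 with protocol GE1_107_Sep09, and the build of probe coordinates is mm9, per the file headers. The deposited files hold linear intensity values per spot, not normalized between arrays, and the deposited value table holds the same intensity values (at least 99.7% of probes within 0.01 log2 of the scanner value on each array). Each array had 43020 spots of 39429 probes of 60 bases; 108 to 174 outlier spots per array and 34 probes were left out, and saturation was recorded for none. The small number of arrays limits the precision.

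Spots of a probe were averaged as log2 values and the array's 75th percentile was subtracted. A probe entered if 1 population or both had it well above background on each of their arrays (30012 probes), and each gene was given by its probe with the highest mean signal. Names came from a RefSeq gene table through accessions for 26034 probes. limma 3.58.1 in R 4.3.3 (lmFit, eBayes, two-sided, Benjamini-Hochberg over 24150 genes) fitted population alone, and population plus number for S1 against S2; errors are its standard errors. Fits were tested on simulated data with known changes. The simulation for the population fit held no gap between S1 and S2, so it does not show how that fit behaves with one. No more than 2 pairs of numbers exist, so whether they pair samples could not be decided; the population fit had no block.

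Members and lists were chosen with earlier results of these data known. Per-array values were given for up to 6 members a class with the largest population difference past the threshold, the 3 immediate early and 3 heat shock members furthest apart between S1 and S2, members with probes called in opposite directions, and members not well above background in only 1 population; from each other list, the 2 largest called differences in each direction. Other genes were named after their values were seen. Alternatives were other scalings, normexp background correction (offset 50), the value table, other filters, other probe rules, a variance trend, the replicate block and leaving out each array.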

Additional observations from a re-analysis of the deposited data

Results flagged for a closer look

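A total of 6 members had S1 minus S2 differences of opposite sign in the 2 populations, and the difference between the populations was not tested, since each side holds 1 array per number. Among heat shock genes, Hspb8 had 0.22 in positive and -0.23 in negative cells, Hspb1 0.23 in positive and -0.15 in negative cells, and Hspa1a -0.33 in positive and 0.0044 in negative cells. Among immediate early genes, Fosl2 had 0.18 in positive and -0.15 in negative cells, Arc 0.44 in positive and -0.014 in negative cells, and Btg1 0.20 in positive and -0.027 in negative cells.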

How the results depend on the processing

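Leaving aside single-array omissions, 592 of the values recomputed for the members and other named genes kept their direction and their side of the threshold, 16 lost the call, 26 gained one and 6 turned sign. Scaling by the array median put the median of all genes at 0.41 instead of 0.15. Immediate early genes called higher in positive cells numbered 3, against 8 with the array median and 5 with normexp and the percentile; those called lower numbered 2, against 1 with quantile normalization and 1 with no filter on dim probes, with a range of 1 to 3 when an array was left out. Heat shock genes called higher numbered 0, against 3 with the array median, 1 with normexp and the percentile, 1 with the filter on all 4 arrays and 2 with a trend and robust variance; those called lower numbered 4, with a range of 2 to 4 when an array was left out. ER and oxidative stress genes called higher numbered 1, and 0 whichever array was left out; those called lower numbered 0, against 1 with quantile normalization after either background correction.

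The labels do not state that numbers pair samples, and S1 minus S2 correlated at 0.224 between the populations across 24150 genes, which are not independent. With the replicate block, 6 immediate early genes were higher and 5 lower, 1 heat shock gene was higher and 4 lower, and 1 ER and oxidative stress gene was higher and 1 lower, beside 17.6% of all genes higher and 18.1% lower. The block ended the calls of Il6 (adjusted p = 0.0521) and Nqo1 (0.0638).

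The immediate early count higher on S1 in both populations, 19, ranged from 15 to 21 over the alternatives, and the heat shock count lower in both, 9, from 9 to 10. The immediate early count lower on S1 in both was 0, and 1 with normexp and quantile normalization. The immediate early median was 0.51 with normexp and the percentile and 0.56 with normexp and quantile normalization in positive cells, and 0.47 with the last in negative cells. With normexp and the percentile 1 immediate early gene, Fos, passed the S1 against S2 test (adjusted p = 0.0455), as 1 of 4 genes in all. The heat shock median was -0.26 with the array median in positive cells; in negative cells it was -0.31 with the array median, -0.16 with quantile normalization after either background correction, and -0.23 with the mean of a gene's probes.

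Signs turned under quantile normalization, without and with normexp, for Dnaja1 (-0.15 and -0.23), Dnajb1 (-0.075 and -0.059) and Hspa8 (-0.13 and -0.11). When an array was left out, signs turned for members that had not passed, with ranges of -0.15 to 0.31 for Hmox1, -0.047 to 0.37 for Ddit3, -0.041 to 0.22 for Dnaja1, -0.028 to 0.28 for Dnajb1, -0.19 to 0.56 for Hsph1, -1.03 to 0.074 for Jun, -0.15 to 0.34 for Ier5, -1.0 to 1.39 for Fosb, -0.65 to 1.08 for Fos, -0.052 to 0.87 for Junb and -0.085 to 1.17 for Btg2. Hspa1a lost its call with quantile normalization (adjusted p = 0.164), the array median (0.106), normexp with the percentile (0.0585) or quantile normalization (0.161), and no filter (0.0724); Atf3 with quantile normalization (0.0512) and no filter (0.0804), and Egr2 with no filter (0.0852). Il6 (0.0738) and Nqo1 (0.0777) lost theirs with no filter, and under normexp with the percentile and with quantile normalization so did Il6 (0.139 and 0.0928) and Slc7a11 (0.273 and 0.0569). With an array left out, S1 and S2 are unequal between the populations, so the gap between S1 and S2 enters the difference. The cause of the turns and losses under other scalings, filters and background correction was not tested.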
